A study of Mus musculus with 2 samples.

Results

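Microglia, the resident macrophages of the brain, and border macrophages, which live in the meninges and around blood vessels, were followed through 36 genes in total RNA-seq of the left cerebral cortex. The genes were taken by symbol from a fixed list, and all 36 were found among the 55536 annotated genes. The rule uses no measured value, but the list was chosen with earlier results of these data known. Both libraries came from female mice at postnatal day 4, F1 hybrids (strain B6CASTF1/J) of the C57BL/6J and CAST/EiJ strains, and no treatment, transgene or second tissue was present. The labels number them as biological replicates 1 and 2 with separate biosample entries but 1 shared donor entry, so animal, dissection and library preparation cannot be told apart in the difference between them, which may be technical. Each library was made from 300 ng of RNA, with 29310533 expected counts on annotated genes in replicate 1 and 28844674 in replicate 2. Levels are in TPM, which scales each library to the same total and each gene by its length, and a gene with no counts could still have up to 3. Values are from the deposited gene and transcript tables made from aligned reads (the first table) unless a second deposited quantification, made directly from the reads (the second table), is named. Intervals cover counting error only.

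Microglia enter the brain from the yolk sac before birth, and in the first postnatal days they clear dying cells and excess synapses and multiply. Their identity rests on the transcription factors PU.1, IRF8 and SALL1 and on the receptor CSF1R, whose ligands CSF1 and IL34 keep them alive. A microglial cell that surveys healthy tissue carries purinergic and chemokine receptors, whereas axon tract microglia of the newborn and microglia beside plaques in the adult turn on a phagocytic set that includes Spp1, Gpnmb, Clec7a, Itgax and Lpl. Border macrophages share the CSF1R and PU.1 programme but are told apart by Mrc1, Lyve1, Cd163, Pf4 and Ms4a7.

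The genes were low but present. Taking 1 TPM or more in each library as detection, 29 of the 36 (80.6%) were detected, against a background of 27.6% of all annotated genes and 59.6% of protein-coding genes. At 2 TPM or more, 18 of the 36 (50%) were detected, against 24.2% of annotated genes and 55.2% of protein-coding genes, so the share of members was above that of protein-coding genes at 1 TPM and below it at 2 TPM. Their summed level was 165.3 TPM in replicate 1 and 169.1 TPM in replicate 2, and they took 0.0276% (95% exact Clopper-Pearson interval 0.0270 to 0.0282%) and 0.0272% (0.0266 to 0.0278%) of the counts. Lpl was the largest single contributor, and without it the sums were 120.2 and 128.5 TPM. Only Lpl lay above 17.2 TPM, the median of the 13137 detected protein-coding genes, and 34 of the 36 had a mean under 10 TPM. In bulk tissue a low level cannot be split into few cells of a type and little RNA per cell. For 34 of the 36 the quantifier's own posterior SD of the count was 0 in both libraries, and Itgam and Itgax were the exceptions. Markers of the dissected tissue averaged between 20.8 TPM (Emx1) and 142 TPM (Slc17a7), above every member but Lpl.

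**Figure D1:**
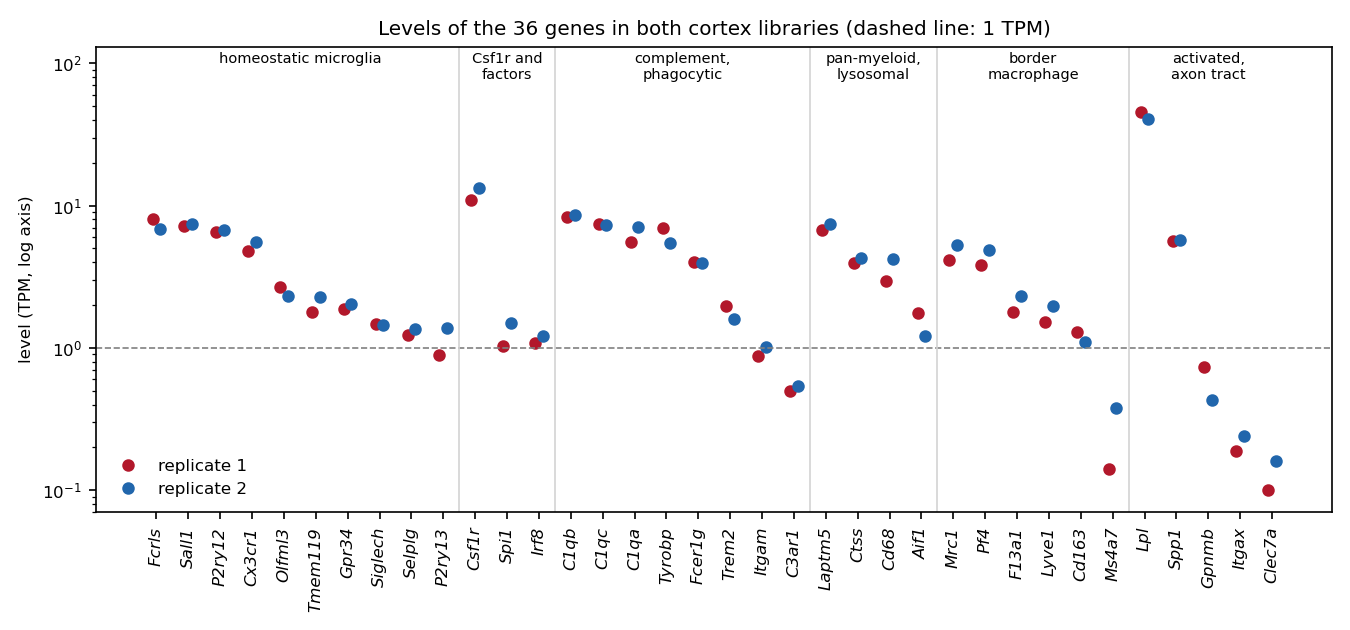
Level in TPM (log axis) of each of the 36 genes in replicate 1 (red) and replicate 2 (blue), in 6 groups by role and sorted by mean level. Lpl at 45.1 and 40.6 TPM stands above the rest, and the 7 genes that were not detected have at least 1 point under the dashed line at 1 TPM.

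Of the 10 genes of surveying microglia 9 were detected, and the median of their mean levels was 2.27 TPM. Fcrls, an Fc receptor-like gene that in mice is used as a microglial marker, led them with 8.08 TPM in replicate 1 and 6.81 TPM in replicate 2. Sall1, which encodes the zinc finger factor of microglial identity and is also transcribed in neural progenitors of the embryonic forebrain, had 7.13 and 7.47 TPM. P2ry12, the ADP receptor that steers microglial processes, had 6.57 and 6.73 TPM. These leading genes were within a narrow band in the first table, where the libraries ordered Fcrls and Sall1 differently. In the second table Fcrls led in both libraries, with 16.1 TPM in replicate 1 and 14.2 TPM in replicate 2. There Sall1 had 9.51 and 10.2 TPM and P2ry12 8.00 and 7.33 TPM. TPM of the tables are not on one scale. Nuclear protein-coding genes hold 50.4% and 51.2% of TPM in the first and 81.7% and 81.3% in the second. With both scaled to those genes, the second table gave 1.27 times the first for Fcrls, 0.844 for Sall1 and 0.718 for P2ry12. Cx3cr1, the fractalkine receptor, followed in the first table with 4.83 and 5.54 TPM. Tmem119, a surface protein of microglia, was at 1.78 and 2.27 TPM, and Gpr34, a lysophosphatidylserine receptor, at 1.87 and 2.05 TPM. Siglech, a sialic acid binding lectin, had 1.47 and 1.46 TPM, and Selplg, the selectin ligand PSGL-1, 1.24 and 1.35 TPM. P2ry13, the neighbour of P2ry12 on chromosome 3 (59207892 to 59210882, against 59216272 to 59262871 for P2ry12, GRCm38) and also an ADP receptor, missed the detection level in replicate 1 with 0.89 TPM and had 1.38 TPM in replicate 2. Both lie inside Med12l on the opposite strand (10.9 and 12.6 TPM), and Gpr34 lies inside Cask on the opposite strand (92.4 and 95.01 TPM). The long annotated span of Cx3cr1 takes in several other genes, among them Gorasp1 on the same strand (11.1 and 11.3 TPM). The sources do not state whether counting used the strand.

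Csf1r, the receptor on which microglia and border macrophages depend for survival, had the highest level after Lpl, 10.9 TPM in replicate 1 and 13.2 TPM in replicate 2 (749 and 795 expected counts). Its libraries did not overlap with those of any other member, so its rank did not depend on the library. The transcription factor genes were much lower. Spi1, which encodes PU.1, had 1.03 and 1.49 TPM, and Irf8, its partner factor, 1.08 and 1.22 TPM. Neither differed from the other beyond the spread between libraries, with a log2 ratio of Spi1 over Irf8, each with 1 TPM added, of 0.07 ± 0.14 (SD, n = 2). Irf8 lies within the long annotated gene Gm20388 on the same strand, which had 1.52 and 6.37 TPM, though the posterior SD of the Irf8 count was 0.

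The classical complement genes were among the most abundant. C1qb had 8.33 TPM in replicate 1 and 8.53 TPM in replicate 2, C1qc 7.42 and 7.33 TPM, and C1qa 5.58 and 7.07 TPM; they encode the chains of C1q, the recognition molecule that tags synapses and debris. C1qb, C1qc and C1qa lie next to each other on the minus strand of chromosome 4, at 136880129 to 136886187, 136889804 to 136893065 and 136895917 to 136898803. No pair of the cluster reached a log2 ratio of 1: C1qb over C1qc was 0.17 ± 0.03, C1qa over C1qc -0.20 ± 0.22 and C1qa over C1qb -0.37 ± 0.19. C3ar1, the receptor for the C3a fragment, was below the detection level with 0.50 and 0.54 TPM, as was C3, the central complement protein that is cleaved downstream of C1q, with 0.50 and 0.61 TPM. C1qa exceeded C3 by a log2 ratio of 2.23 ± 0.14, or 3.29 on average with 0.1 TPM added in place of 1. C4b, the complement protein cleaved between these steps, was at 2.66 and 2.20 TPM.

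Promoter sequences of C1q genes and of genes marking each kind of macrophage are shown because PU.1 itself is a member here and the purine-rich GAGGAA is a core of its known binding motif. The sequences are from RefSeq on GRCm38.p6, run 5′ to 3′ along the gene from 250 bases before its start to 50 after the start as RefSeq gives it, and capitals mark GAGGAA or its reverse complement TTCCTC. They cover chr4:136886151-136886450 for C1qb and chr4:136892865-136893164 for C1qc, both on the minus strand, chr2:14229164-14229463 on the plus strand for Mrc1, and chr3:59262936-59263235 on the minus strand for P2ry12. RefSeq's starts differ from those of the gene models measured here, and the P2ry12 window lies wholly upstream of the P2ry12 model given above.
C1qb: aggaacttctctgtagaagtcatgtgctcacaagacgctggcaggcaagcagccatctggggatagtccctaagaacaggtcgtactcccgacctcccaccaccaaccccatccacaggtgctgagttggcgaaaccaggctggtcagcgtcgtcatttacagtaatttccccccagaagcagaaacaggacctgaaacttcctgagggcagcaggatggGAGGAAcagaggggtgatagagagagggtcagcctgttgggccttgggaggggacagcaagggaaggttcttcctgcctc
C1qc: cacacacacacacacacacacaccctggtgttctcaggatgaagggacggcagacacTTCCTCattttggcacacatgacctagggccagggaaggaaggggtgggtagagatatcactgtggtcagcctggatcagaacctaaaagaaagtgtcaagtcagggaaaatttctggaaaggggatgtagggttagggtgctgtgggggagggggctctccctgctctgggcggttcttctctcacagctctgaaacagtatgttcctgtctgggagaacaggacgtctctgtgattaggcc
Mrc1: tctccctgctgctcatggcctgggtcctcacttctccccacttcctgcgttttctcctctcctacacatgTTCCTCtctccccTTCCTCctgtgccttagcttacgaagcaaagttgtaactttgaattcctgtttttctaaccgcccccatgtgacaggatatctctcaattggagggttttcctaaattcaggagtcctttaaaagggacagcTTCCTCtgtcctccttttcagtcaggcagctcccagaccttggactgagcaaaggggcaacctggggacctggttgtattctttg
P2ry12: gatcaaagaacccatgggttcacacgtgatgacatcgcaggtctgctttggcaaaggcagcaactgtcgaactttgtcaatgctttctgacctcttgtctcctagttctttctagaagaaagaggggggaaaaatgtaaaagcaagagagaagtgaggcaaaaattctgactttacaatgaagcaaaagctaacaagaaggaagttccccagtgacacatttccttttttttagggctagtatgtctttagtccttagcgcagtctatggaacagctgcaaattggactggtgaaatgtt
C1qb and C1qc, close in level, each hold 1 match, Mrc1 holds 3, and P2ry12, with a level between those of C1qc and Mrc1, holds none in this window. Of the 36 genes, 27 matched the table with 34 promoters, and 19 of these (55.9%), of 17 genes, hold the core on either strand, against 28.3% of all 32851 promoters of 300 bases. The longer run GAGGAAGT, which contains the core, was found in 5 of the 34 (14.7%), among them that of C1qc, and in 3.20% of all. Several genes have more than 1 promoter, so these are not independent, and a match of letters is not a binding site.

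The phagocytic receptor Trem2 lay below its adaptor. Tyrobp, which encodes the signalling adaptor DAP12, had 6.98 TPM in replicate 1 and 5.47 TPM in replicate 2, and Trem2, the lipid-sensing receptor that signals through it, 1.97 and 1.60 TPM. Tyrobp exceeded Trem2 by a log2 ratio of 1.37 ± 0.08 (SD, n = 2), or 1.74 on average with 0.1 TPM added in place of 1. Fcer1g, the gamma chain that serves Fc receptors, was at 4.03 and 3.95 TPM, and its ratio to Trem2 was 0.84 ± 0.12, short of 1. That ratio averaged 1.04 in the second table and 1.12 with 0.1 TPM added in place of 1. Under neither setting was it at least 1 in both libraries. Itgam, the CD11b chain of complement receptor 3, was just around the detection level with 0.88 and 1.02 TPM, and the gene of its partner chain, Itgb2, had 0.43 and 0.86 TPM. Itgam also overlaps the annotated gene Gm49368, listed at 0 in both libraries, and the posterior SD of its count was 3.05 in replicate 1 and 3.39 in replicate 2.

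Genes shared by all macrophages were all detected. Laptm5, a lysosomal membrane protein of blood cell lineages, had 6.77 and 7.46 TPM, Ctss, the protease cathepsin S, 3.98 and 4.26 TPM, and Cd68, a lysosomal glycoprotein, 2.96 and 4.2 TPM. Aif1, which encodes the widely stained marker IBA1, was the lowest of them with 1.76 TPM in replicate 1 and 1.22 TPM in replicate 2, resting on 25 and 15 counts. It was also the detected gene with the widest count ratio between the libraries, 1.68-fold with an exact interval of 0.849 to 3.42.

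Of the 6 border macrophage genes 5 were detected, and the median of their mean levels was 1.91 TPM. Mrc1, the mannose receptor CD206, led with 4.14 TPM in replicate 1 and 5.31 TPM in replicate 2 (421 and 515 counts). Pf4, the chemokine CXCL4, had 3.83 and 4.89 TPM, F13a1, the clotting factor XIII A chain, 1.80 and 2.33 TPM, Lyve1, a hyaluronan receptor, 1.53 and 1.97 TPM, and Cd163, the haemoglobin scavenger receptor, 1.29 and 1.10 TPM. Ms4a7, a membrane protein of border macrophages, was the exception with 0.14 and 0.38 TPM, or 4 and 9 counts. Mrc1 exceeded Lyve1 by a log2 ratio of 1.05 ± 0.05 and Cd163 by 1.38 ± 0.30; in the second table Mrc1 over Lyve1 averaged 1.06 but was just under 1 in replicate 2. P2ry12 over Mrc1 was 0.43 ± 0.19, less than 1 in both libraries. In the second table it averaged 0.19, and the order turned in replicate 2, with P2ry12 at 8.00 and 7.33 TPM and Mrc1 at 5.85 and 7.43 TPM. Tmem119 exceeded Ms4a7 by 1.27 ± 0.03, or 2.64 on average with 0.1 TPM added in place of 1. The summed level of the 10 surveying microglia genes was 36.6 and 37.4 TPM, and that of the 6 border macrophage genes 12.7 and 16.0 TPM.

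Pf4 and F13a1 are also made by platelets and megakaryocytes, and Lyve1 by lymphatic endothelium. The platelet chemokine Ppbp had 1 count in replicate 1 and 0 in replicate 2, against 30 and 38 counts of Pf4. The size of their log2 ratio is set by the TPM added: it was 2.38 ± 0.25 with 1 TPM, 5.18 on average with 0.1 TPM, and 2.87 in the second table with 1 TPM. Gp9 and Gp1ba, chains of the platelet receptor for von Willebrand factor, had at most 2 counts in either library. Itga2b, the platelet integrin chain CD41, was however at 1.96 and 2.00 TPM, and the log2 ratio of F13a1 over Itga2b was 0.04 ± 0.16. In the second table it was -0.37, with F13a1 lower in both libraries (F13a1 2.66 and 3.46 TPM, Itga2b 4.43 and 4.04 TPM). For lymphatic endothelium, Prox1, a factor also made by neurons, was at 7.21 and 8.10 TPM and Flt4 at 1.57 and 1.90 TPM, while the chemokine Ccl21a had 0 counts in replicate 1 and 2.61 in replicate 2. Their part in the Lyve1 level was not tested. Of 12 further border macrophage genes 3 were detected: Dab2 (14.7 and 17.7 TPM), Stab1 (15.1 and 11.9 TPM) and Cbr2 (1.01 and 1.43 TPM). The median of the mean levels in that list was 0.315 TPM. In bulk tissue the levels of Dab2 and Stab1 cannot be assigned to border macrophages. Cd74, the invariant chain of class II MHC, had 0.82 and 0.81 TPM, and Cd209g was listed at 0.

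Genes of activated and axon tract microglia split by level. Lpl, the lipoprotein lipase, had 45.1 TPM in replicate 1 and 40.6 TPM in replicate 2 (3172 and 2784 counts), and Spp1, the secreted protein osteopontin, 5.68 and 5.73 TPM. Lpl is also transcribed by neurons and Spp1 by cells outside the myeloid lineage, so their levels cannot be assigned to microglia here. The other members, which are more restricted, were not detected. Gpnmb, a transmembrane glycoprotein of lysosomes, had 0.74 and 0.43 TPM, Itgax, the CD11c integrin chain, 0.19 and 0.24 TPM, and Clec7a, the glucan receptor dectin-1, 0.10 and 0.16 TPM, or 4 counts in each library. Among 10 further genes of this state, Fabp5 (280 and 247 TPM), Cd63, Cd9 and Igf1 (7.5 and 7.31 TPM), none of them restricted to microglia, were the 4 detected, and Ccl4, a chemokine, had 0 and 1 count.

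The pathway around these genes was measured through lists of ligands and signalling partners. Of 12 genes listed as ligands and partners from other cells, 11 were detected, though which cells made their RNA was not measured. Il34, the neuronal CSF1R ligand, had 7.03 TPM in replicate 1 and 7.05 TPM in replicate 2, and Csf1 6.39 and 5.74 TPM, apart by a log2 ratio of 0.19 ± 0.10 for Il34 over Csf1. Csf1r exceeded Csf1 by 0.88 ± 0.27 and Il34 by 0.69 ± 0.17, neither at least 1 in both libraries, but Csf1r over Csf1 reached 1.07 in replicate 2 alone and averaged 1.08 in the second table. For fractalkine the order was the other way: Cx3cr1 over its ligand gene Cx3cl1 (55.8 and 55.0 TPM) was -3.19 ± 0.13. Cd200 (155 TPM in each) and Cd47 (110 and 106 TPM), surface proteins that restrain phagocytes, were high. So was Sirpa, which encodes the CD47 receptor (60.1 and 60.0 TPM), though bulk tissue does not show which cells made its RNA. Cd200r1, the CD200 receptor, had 4 counts and 1. Apoe, a lipid carrier bound by TREM2, was at 360 and 329 TPM. Of 18 further receptor and signalling genes 12 were detected, and of 18 further microglial and lysosomal genes 11 were. Cst3, Ctsb, Ctsd and Coro1a led the second of these lists with means of 411, 108, 80.6 and 67.4 TPM, and Tlr2 was its lowest with 0.18 and 0.30 TPM. The median of the mean levels in that list was 1.68 TPM. In bulk tissue the levels of its leading genes cannot be assigned to microglia.

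**Figure D2:**
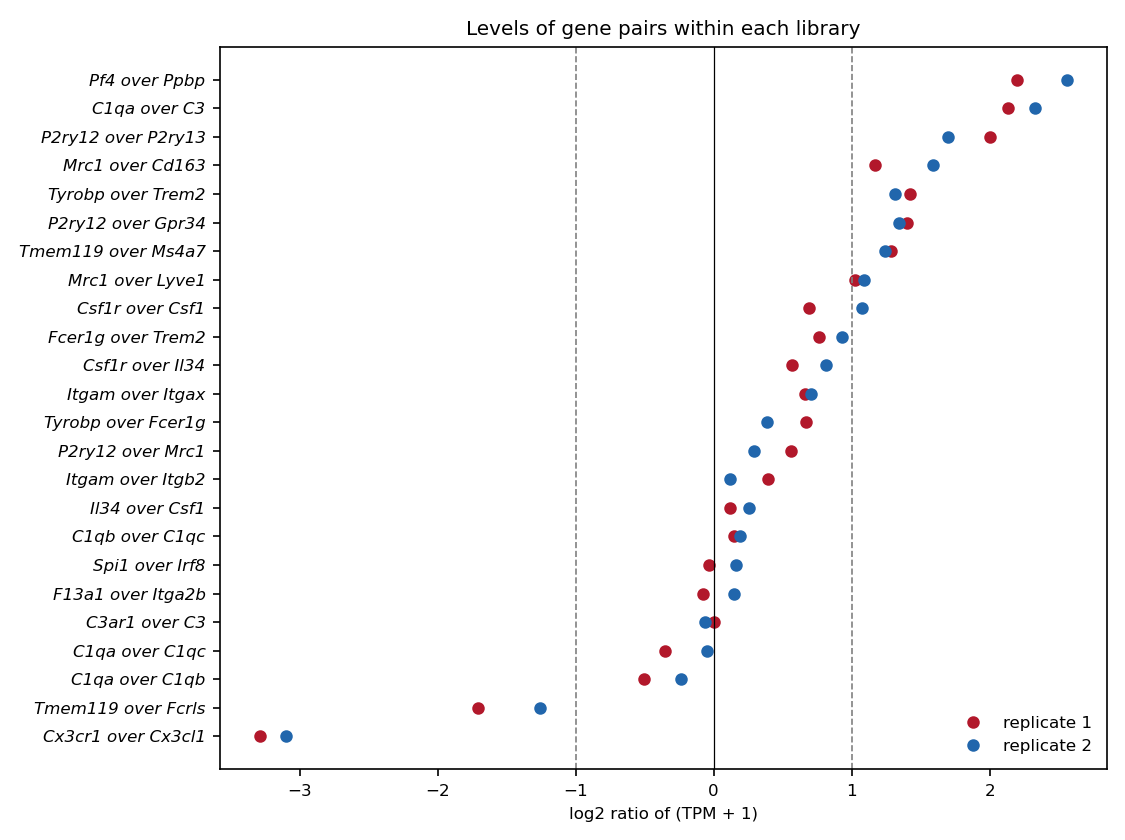
Log2 ratio of TPM + 1 for 24 gene pairs in replicate 1 (red) and replicate 2 (blue), with dashed lines at -1 and 1. In 10 pairs both points lie at or past the same line: 8 with the gene named before "over" higher and 2, Tmem119 over Fcrls and Cx3cr1 over Cx3cl1, with it lower.

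In 10 of the 24 pairs the genes were at least 1 log2 unit apart, in the same direction, in each library. Besides those given, P2ry12 exceeded P2ry13 by 1.85 ± 0.21 and Gpr34 by 1.37 ± 0.04, and Tmem119 over Fcrls was -1.48 ± 0.32. With 0.1 TPM added in place of 1 these averaged 2.48, 1.71 and -1.83, because the TPM added shrinks ratios of low genes. With 1 TPM added, Tyrobp over Fcer1g (0.53 ± 0.20), Itgam over Itgb2 (0.26 ± 0.19), Itgam over Itgax (0.68 ± 0.03) and C3ar1 over C3 (-0.03 ± 0.05) were less than 1 log2 unit apart. No test was made of the pairs, because with 2 libraries the smallest p of a sign-flip test is 0.5. In the order of all 36 genes by mean level, 10 of the 35 neighbouring steps separated genes whose library values did not overlap.

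The libraries were then compared gene by gene, to see how far the macrophage genes moved between them. Scaled counts were put to an exact binomial test, two-sided, with Benjamini-Hochberg adjustment over all 18492 genes with 20 counts or more. A gene was called where the adjusted p was under 0.05 and the libraries differed 2-fold or more. The test knows only counting error and speaks of these libraries alone. No member of the 34 tested was called, against a background of 2.88% of all genes tested; Ms4a7 and Clec7a had too few counts. At an unadjusted p under 0.05, 3 of the 34 (8.82%) differed, against 33.6% of all genes, but the members had a median of 157.5 counts over both libraries and all tested genes 750.0, and a test on fewer counts detects less. Those genes were Lpl, with a 1.15-fold count ratio of replicate 1 over replicate 2 (exact interval 1.09 to 1.21; adjusted p = 3.67e-06 in the exact binomial test), Mrc1 at 0.822-fold (0.721 to 0.936; adjusted p = 0.0167 in that test) and Olfml3 at 1.23-fold (1.001 to 1.505; adjusted p = 0.147). With no fold threshold Lpl and Mrc1 would be called, beside 23.9% of all genes.

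The 29 detected genes had log2 count ratios of replicate 1 over replicate 2 between -0.34 (Cd68) and 0.73 (Aif1), with 16 above 0 and 13 below. Their median was 0.04, beside 0.01 over all 15304 detected genes. Well-counted genes had narrow intervals: the ratio was 0.947-fold for Csf1r (0.856 to 1.05), 1.01-fold for Sall1 (0.906 to 1.12), 0.924-fold for Cx3cr1 (0.796 to 1.07) and 1.03-fold for P2ry12 (0.848 to 1.25). Fcrls and Laptm5, with more counts than P2ry12 (545 and 470 against 431 over both libraries), lay further from 1. They were at 1.16-fold (0.977 to 1.38) and 0.869-fold (0.722 to 1.05). P2ry13 had the lowest ratio of the surveying microglia genes, 0.681-fold (0.449 to 1.02). Genes of few counts had wider intervals, which included 1, such as Gpnmb at 1.59-fold (0.930 to 2.77) and Spi1 at 1.45-fold (0.845 to 2.52).

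**Figure D3:**
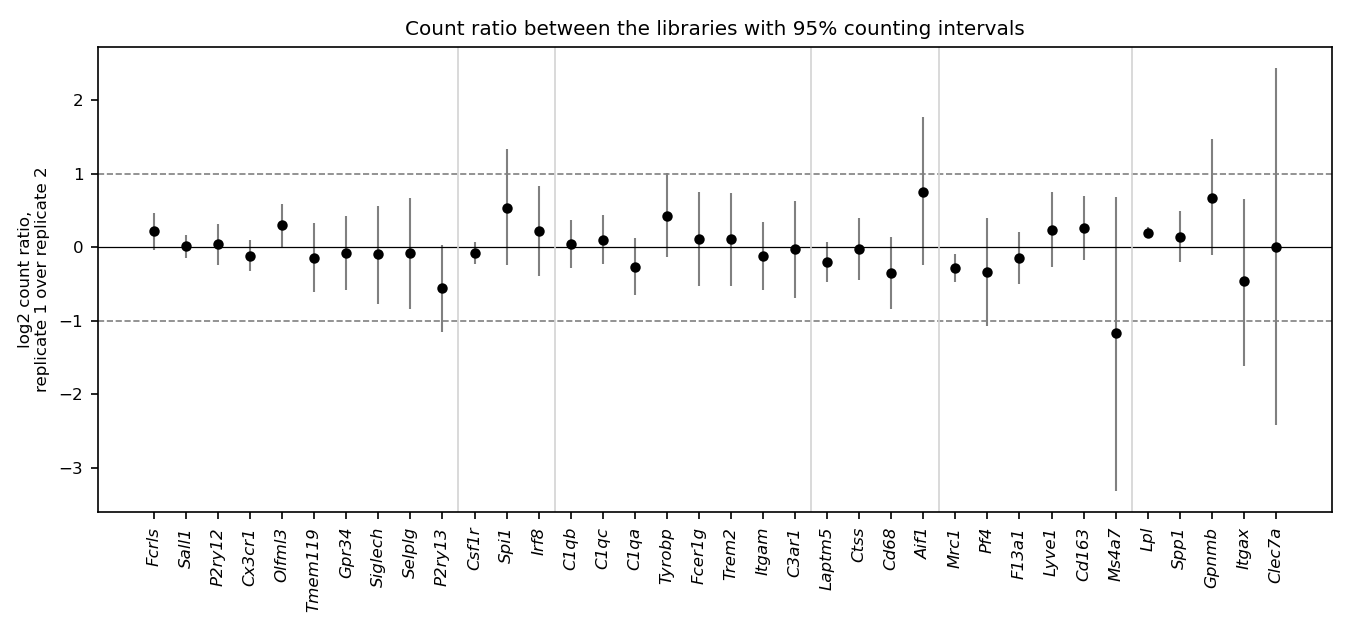
Log2 ratio of scaled counts, replicate 1 over replicate 2, for the 36 genes in the order of the plot of levels, with exact 95% counting intervals and dashed lines at a 2-fold difference. For 33 of the 36 the interval includes 0, and for Lpl, Mrc1 and Olfml3 it does not.

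Other cell types did differ between the libraries, by far more than the macrophage genes. Choroid plexus genes were called higher in replicate 1 for 7 of 8, with a summed level of 218.5 TPM in replicate 1 and 6.19 TPM in replicate 2, led by the thyroxine carrier gene Ttr at 206 and 1.94 TPM (log2 ratio 6.79). Erythroid genes were called higher in replicate 1 for 5 of the 6 tested, with sums of 477 and 63.4 TPM and Hba-a1 at 171 and 20.9 TPM. The choroid plexus harbours macrophages of its own and blood carries monocytes, and their part in the member levels was not tested. Replicate 1, the library with more choroid plexus and erythroid RNA, had lower TPM of Mrc1, Pf4, F13a1, Lyve1 and Ms4a7 and higher TPM of Cd163. Ms4a7 rested on 4 and 9 counts, and by scaled counts Lyve1 was higher in replicate 1 too. Markers of blood monocytes and granulocytes were near 0: none of 12 was detected, their summed level was 2.01 TPM in replicate 1 and 3.53 TPM in replicate 2, their highest member S100a9 had 6 and 5 counts, and Ly6g had 0. None of 10 lymphocyte genes was detected either (sums 0.78 and 1.42 TPM). Meningeal fibroblast genes, which share the border with Mrc1-positive cells, summed to 102.8 and 102.9 TPM with all 8 detected. The sums hid genes that went both ways: Slc22a6 (log2 ratio -0.37) and Ranbp3l (-0.67) were lower in replicate 1, as Mrc1 was, with adjusted p of 0.00356 and 0.00161 in the exact binomial test, and the collagen gene Col1a1 was higher (0.25, adjusted p = 1.5e-11). Their part in the Mrc1 difference was not tested. Endothelial genes summed to 76.0 and 80.5 TPM with 7 of 8 detected. Neither list had a tested gene past the 2-fold threshold, and Ccl21a had too few counts to be tested.

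**Figure D4:**
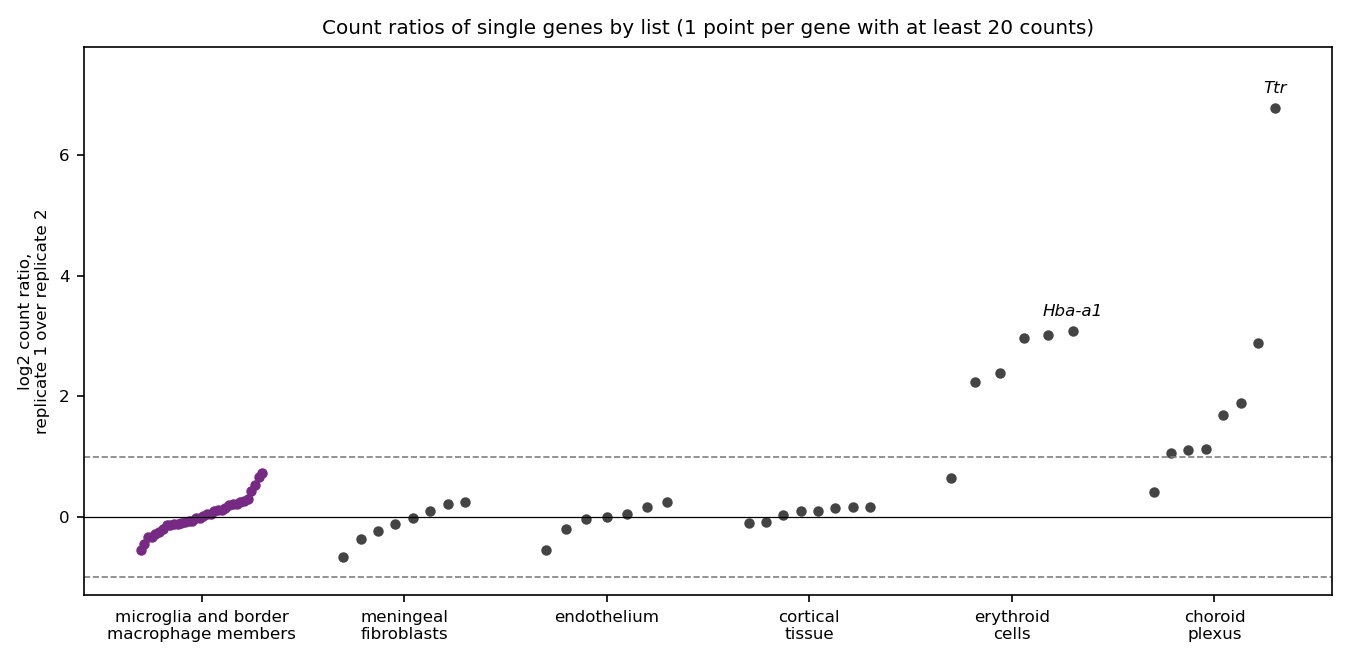
Log2 ratio of scaled counts, replicate 1 over replicate 2, of single genes with at least 20 counts in the 36-gene list and in lists of other cell types, sorted within each list; dashed lines mark a 2-fold difference. The macrophage genes lie between -0.55 and 0.73, whereas 5 of 6 erythroid and 7 of 8 choroid plexus genes lie above 1, up to 6.79 for Ttr.

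At the level of transcripts, most macrophage genes were read as their protein-coding forms. Among the 26 detected genes with several annotated transcripts, protein-coding transcripts held a median of 95.4% of the gene's TPM in the first table. There 5 of the 26 fell below 80%: Olfml3, Aif1, Pf4, Lyve1 and Irf8. Over 11875 detected protein-coding genes with several transcripts the median was 85.6% and 41.2% fell below 80%. In the second table Pf4 (100%), Aif1 (91.1%) and Irf8 (90.7%) were above 80%. Trem2 (57.4%), Siglech (62.8%), Selplg (63.4%) and Lpl (75.8%) were below it there. Only Olfml3 and Lyve1 (76.5% in the second table) were below 80% in both tables. Olfml3, a secreted matrix protein gene of microglia, stood out. Its annotated retained-intron transcript of 3981 bases held 83.7% of its TPM in replicate 1 and 83.02% in replicate 2, and 85.6% on average in the second table. Its coding transcript of 5465 bases was at 0.44 and 0.39 TPM, out of gene levels of 2.70 and 2.32 TPM. In Lpl the coding transcript of 4115 bases held 83.3% ± 2.68 (SD, n = 2) and a nonsense-mediated decay form of 1900 bases 14.2% ± 3.56. In Pf4 the retained-intron form of 360 bases held 33.9% ± 5.04 of the gene's TPM in the first table, and the second table gave it 0%.

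Which transcript led could not be fixed for many of these genes. The same transcript dominated in both libraries and both tables for 13 of the 26, against 65.3% of all detected genes with several transcripts. Mrc1, C1qc, Csf1r and Laptm5 were among those, with leading transcripts at 99.0% ± 0.134, 99.0% ± 1.39, 77.4% ± 0.665 and 57.4% ± 3.75 of the gene's TPM (SD, n = 2). The comparison of shares did not allow for counts, which were lower for the tested members than for all tested genes (median 157.5 against 750.0). Ctss counted as a difference although the second table gave its transcripts 50% each, a tie. For P2ry12 the first table gave the coding transcript of 2101 bases 74.3% in replicate 1 and 50.9% in replicate 2, whereas the second table gave that of 2250 bases the lead with 79.0% on average. For Aif1 the first table placed 88.2% on a coding transcript of 847 bases in replicate 1 and 100% on a noncoding one of 763 bases in replicate 2, from 25 and 15 counts in all, and the second table named other transcripts. Lyve1 had 74 counts in replicate 1 and 63 in replicate 2 but a lower TPM in replicate 1, with a retained-intron transcript of 802 bases at 14.6% and 51.0%, and Spi1 had 36 and 25 counts but 1.03 and 1.49 TPM. In 9 of the 36 genes the TPM and the scaled count gave opposite orders of the libraries, among them C1qb and Sall1, which have a single annotated transcript and nearly equal libraries on both scales. In every member with a single annotated transcript the log2 ratio of replicate 1 over replicate 2 was lower by TPM than by scaled counts. It was -0.03 against 0.04 for C1qb, -0.07 against 0.01 for Sall1 and -0.34 against -0.26 for C1qa. For P2ry13 it was -0.63 against -0.55, and for C3ar1 -0.11 against -0.03. The cause of the opposite orders was not tested.

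**Figure D5:**
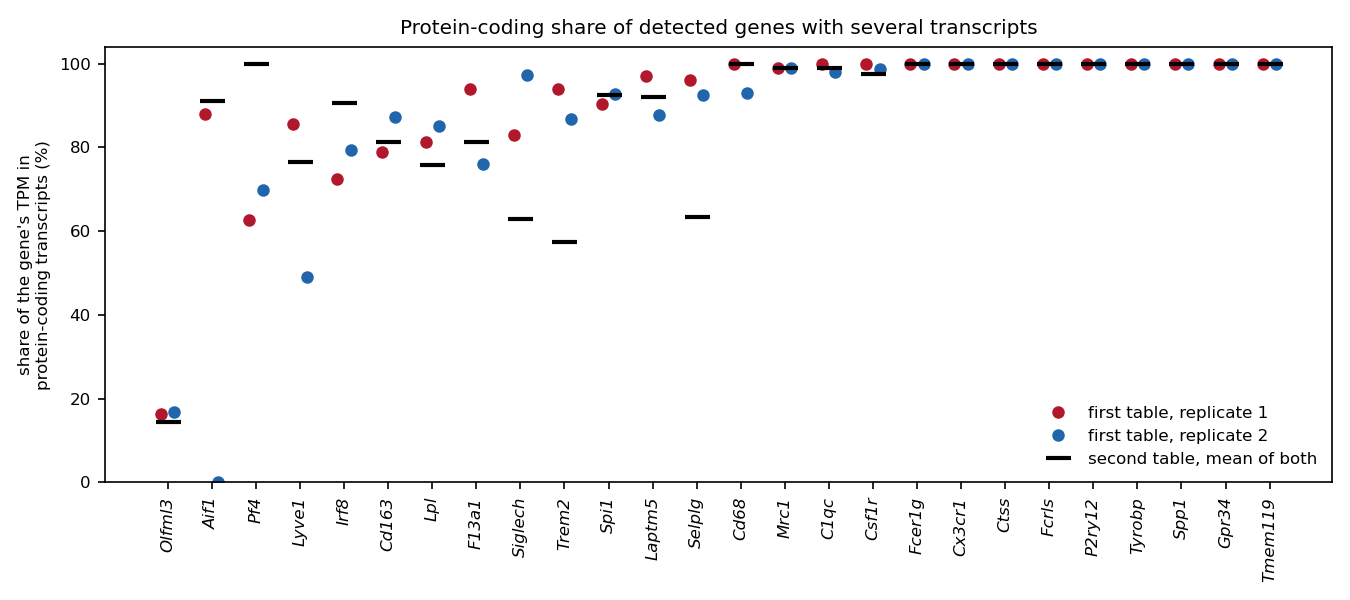
Share of each gene's TPM held by protein-coding transcripts (percent) for the 26 detected genes with several transcripts, in replicate 1 (red) and replicate 2 (blue) of the first table and as the mean of both libraries in the second table (black bars). Olfml3 is low in every table, at 16.3%, 16.9% and 14.4%, while Aif1 is at 88.1% in replicate 1 and 0% in replicate 2.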

How the data were processed

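The 36 genes, their grouping by role and the other lists were chosen with earlier results of these data known. The deposited file descriptions name mm10 and annotation M21; the aligner, versions and strand setting: not given in the sources used here. The first tables (genes and transcripts) hold expected counts with their posterior SD, deposited TPM values scaled by effective length, and the percent of the gene's TPM that each transcript holds, per the file headers; their column names are those of RSEM. The second table, deposited with the column names of kallisto, holds estimated counts and TPM per transcript, summed here per gene. GENCODE M21 (GRCm38) gave names, biotypes and positions. Spike-ins, phiX and 26248 numbered entries stayed out of library sizes.

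Counts were rounded for the exact binomial test (P doubled from the smaller tail), with TMM factors of 0.990 and 1.01 from edgeR 4.0.16 (R 4.3.3) after filterByExpr; log2 ratios had 0.5 added to each count, while folds with intervals had nothing added. Replicate 1 over replicate 2 was used throughout. The test was checked on simulated counts. Pairs used a pseudocount of 1 TPM. Named were all 36 genes and, of each other list, the 4 highest and the lowest by mean TPM, genes in pairs and genes called; C4b, Flt4, Slc22a6, Ranbp3l and the genes overlapping members were chosen after their values were seen, and not all genes the rule allows are printed. DESeq2 1.42.0 size factors were an alternative. The rest ran in Python 3.11.15 (scipy 1.17.1, pandas 2.3.3, numpy 2.4.6; figures with matplotlib 3.10.9).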

Additional observations from a re-analysis of the deposited data

How the results depend on the processing

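At a TPM of at least 0.5, 32 of the 36 genes (88.9%) were detected, against 63.3% of protein-coding genes. At a TPM of at least 2 it was 18 (50%), against 55.2%. In the second table it was 31 (86.1%), against 63.1%. The count was 31 with TPM rescaled to nuclear protein-coding genes and 29 to 31 with 1 library left out. With protein-coding transcripts only, an alternative chosen after seeing the data, it was 23. For these last settings the share over all genes was not computed. No member was called between the libraries under total counts, DESeq2 size factors, spike-in counts as library size, no count filter or the second table. Of all genes tested, 3.06% were called under total counts, 2.90% under DESeq2 size factors, 2.75% under spike-in counts and 3.44% in the second table. With no count filter that share was not computed. With no fold threshold 2 members were called, beside 23.9% of all genes. The median log2 ratio of replicate 1 over replicate 2 was between 0.01 and 0.08 under those scalings and the second table, and -0.00732 over all 36 genes. Of the pairs, 11 passed with a pseudocount of 0.1 (Itgam over Itgax joining at 1.74), 10 in the second table (Csf1r over Csf1 joining at 1.08, Mrc1 over Lyve1 leaving at 1.06, under 1 in 1 library), 10 to 11 with 1 library left out, and 6 of 17 when both genes had to be detected. Pair ratios that moved by over 1.5 times in the second table, besides those given with the results, were C1qa over C1qb (-0.57), C1qa over C1qc (-0.41), Il34 over Csf1 (0.58), Spi1 over Irf8 (0.40), Tyrobp over Fcer1g (0.31), Itgam over Itgb2 (0.10) and C3ar1 over C3 (-0.01); none of these pairs was apart in either table. The dominant transcript was the same in both tables for 14 to 21 genes with 1 library left out (21 without replicate 2, 14 without replicate 1), where fewer tables had to match. Levels in the first table are about 1.97-fold higher when scaled to nuclear protein-coding genes, which hold 50.4% and 51.2% of its TPM. In the second table these genes hold 81.7% and 81.3%, so a cut of 1 TPM is not the same in both. No paired analysis was possible because there is 1 group. Genes under about 20 counts, Ms4a7 and Clec7a, are limited by depth.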
